A study of Homo sapiens with 24 samples.

Results

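The genes described here are 46 interferon-stimulated genes, a set of genes known to be switched on by type I interferon, followed across a microarray study of 2 B-cell lymphoma lines. They were taken by name from a list of 47 symbols, by a rule that uses no measured value, although earlier results of these data were known when the list was made. Every gene on the list was found, because DDX58 and RIGI are older and newer symbols of a single gene, and the 46 genes stand among 25161 symbols and 25575 rows of the expression table. Each was represented by 1 row.

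The line SU-DHL-4 stands for diffuse large B-cell lymphoma and the line DG-75 for Burkitt lymphoma, each disease being represented by 1 established line. Cells of both lines were kept for 72 h in DMSO (the solvent control), in 1 µM Entospletinib (Ento, an inhibitor of the B-cell receptor kinase SYK), in 0.01 µM AZD5153 (AZD, a bivalent inhibitor of BET chromatin readers), or in both agents together (Ento+AZD). Each of the 8 groups held 3 arrays, described by the submitters as biological triplicates and carrying the numbers 1 to 3. The question put by the design is how each inhibitor, and the pair, alters transcript levels in each line.

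Interferon-stimulated genes form the antiviral programme of nearly every nucleated cell. Interferon binds its receptor, the kinases JAK1 and TYK2 phosphorylate STAT proteins, and these join IRF9 to form the complex ISGF3, which binds short DNA elements in the promoters of these genes. Several members, among them STAT2, IRF9, IRF7 and the RNA sensors, are themselves parts of the pathway, so the programme feeds on its own products. B cells are known to express a part of it without infection.

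The DNA element bound by ISGF3 has the core GAAANNGAAA, where N is any base. RefSeq promoter windows of 300 bases (build GRCh38.p14, from 250 bases before to 50 bases after a transcription start) were available for 37 of the 46 members, and 25 of these 37 (67.6%) held the core on either strand in at least 1 window. Over all genes with a window the share was 4.38%, and over all 35116 windows it was 3.57%. The core was held by 14 of 18 members whose level varied by more than 2 on the log2 scale across the DG-75 arrays and by 11 of the 19 other members. Such a match describes the letters in the window and is not a measured binding site. The stretches around the core are given below for the members on which the results turn, read 5′ to 3′ on the strand named, with the core in capitals (as its reverse complement where it lies on the opposite strand).
PARP9 and DTX3L (chr3:122564251-122564387, plus strand): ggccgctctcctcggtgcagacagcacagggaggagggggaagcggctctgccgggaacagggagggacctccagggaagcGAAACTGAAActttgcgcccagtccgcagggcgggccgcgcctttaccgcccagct
EPSTI1 (chr13:42992247-42992326, minus strand): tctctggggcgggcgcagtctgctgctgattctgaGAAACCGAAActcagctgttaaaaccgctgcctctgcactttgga
PARP14 (chr3:122680775-122680854, plus strand): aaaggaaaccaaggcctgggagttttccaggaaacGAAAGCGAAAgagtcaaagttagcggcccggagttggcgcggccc
IFI44L (chr1:78620249-78620328, plus strand): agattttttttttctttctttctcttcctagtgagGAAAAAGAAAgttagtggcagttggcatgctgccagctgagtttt
IFI44 (chr1:78649736-78649815, plus strand): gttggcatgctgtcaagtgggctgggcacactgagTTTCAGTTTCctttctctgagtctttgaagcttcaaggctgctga
MX1 (chr21:41420528-41420607, plus strand): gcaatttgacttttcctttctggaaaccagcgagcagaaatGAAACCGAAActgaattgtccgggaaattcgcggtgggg
IFIH1 (chr2:162318799-162318878, minus strand): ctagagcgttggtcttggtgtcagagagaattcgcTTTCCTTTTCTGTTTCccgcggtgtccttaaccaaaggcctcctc
PARP9 and DTX3L lie head to head on chromosome 3, transcribed away from each other from starts 38 bases apart, and the first sequence, of 137 bases, is the stretch that their windows share. Its single core therefore belongs to the promoter window of both genes. In IFIH1 the capitals cover 2 overlapping matches. The whole windows of IFIH1 and IFI44L held 3 and 2 matches, so further matches lie outside the stretches printed. The window of OAS1 held no match.

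All values are log2 intensities after RMA, so a difference of 1 is a 2-fold difference, and a level can be compared between arrays for the same gene but not between genes. No detection calls were used here, so a low log2 value cannot be sorted into expressed or not expressed. A gene was called in a comparison when the limma test gave a Benjamini-Hochberg adjusted p below 0.05 over all 25575 rows and the change exceeded 1 on the log2 scale. Arrays of the same group correlated between 0.981 and 0.992 over all rows and no pair was identical. The mean log2 level of 6 B-cell markers lay between 8.36 and 10.5 on every array, against 2.49 to 3.04 for 4 T-cell markers, 3.93 to 4.44 for 4 monocyte and macrophage markers, 4.85 to 5.39 for 4 plasmacytoid dendritic cell markers, 3.30 to 3.83 for 3 NK cell markers and 3.45 to 4.21 for 3 erythroid markers. Because levels cannot be compared between genes, these means describe the arrays and rank no cell type. TCF4, in the plasmacytoid dendritic cell list and also known from B cells, lay between 9.83 and 11.42. The part of other cell types in any result was not tested. In such bulk RNA, fewer cells carrying a transcript and less transcript per cell cannot be told apart.

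The spread of the members across arrays is described first, with no test between the lines. In DG-75, 21 of the 46 members (45.7%) ranged over more than 2 log2 units across the 12 arrays, against 1.29% of all rows. Among the SU-DHL-4 arrays this held for 4 members (8.70%), namely PARP9, DTX3L, EPSTI1 and IFITM1, against 1.78% of all rows. Of the 21 wide-ranging members of DG-75, 7 (IFI44L, IFIH1, PLSCR1, USP18, IFIT1, IFI44 and IFIT3) had means between 2.06 (IFI44L) and 2.75 (IFIT3) in SU-DHL-4, near the low end of the scale, where a fall could hardly be measured. The median standard deviation within groups was 0.52 for the members and 0.22 for all rows in DG-75. It was 0.28 and 0.23 for SU-DHL-4. The members also moved together in DG-75. Over its 12 arrays the median Pearson correlation between pairs of members was 0.60, against 0.029 for pairs of all rows. For SU-DHL-4 the corresponding values were 0.22 and 0.053. Within groups, the median between pairs of members was 0.64 in DG-75 and 0.14 in SU-DHL-4, against 0.022 and 0.057 for all rows. These correlations are descriptions over arrays that the genes share, so counts of members are not counts of separate observations.

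**Figure D1:**
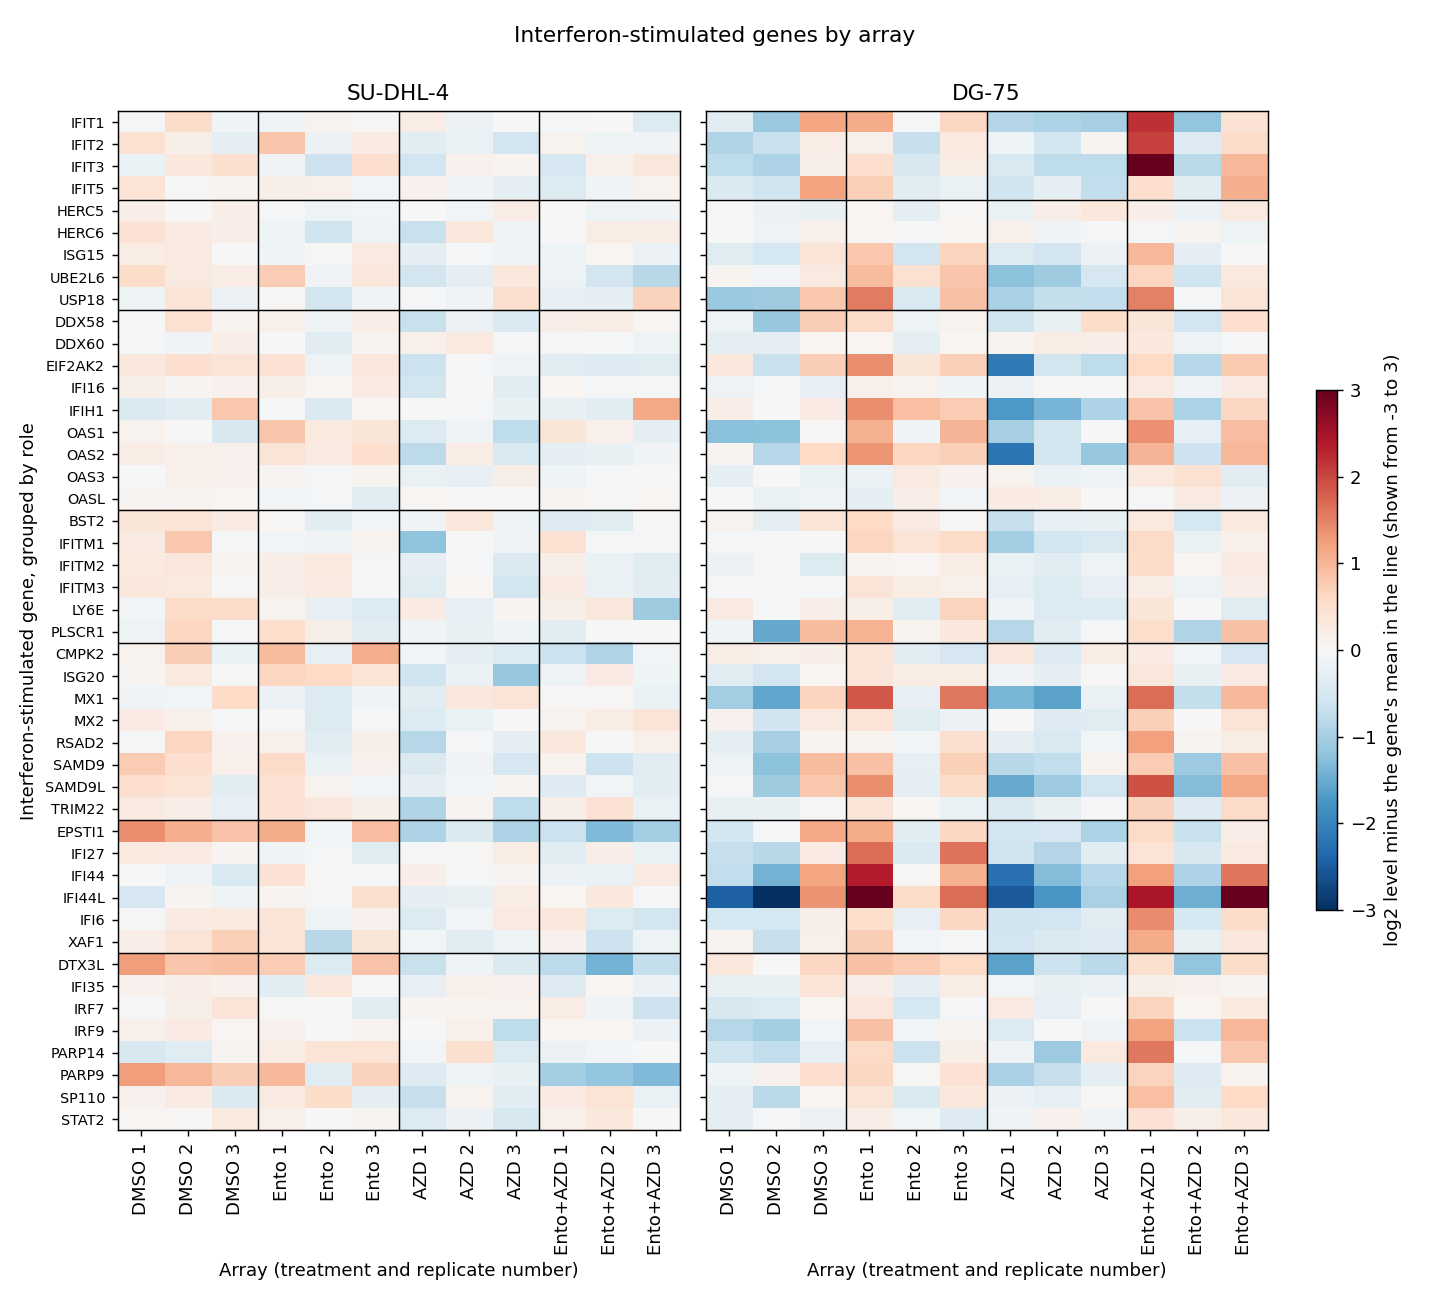
Each row is 1 of the 46 interferon-stimulated genes, grouped by role, and each column is 1 array of SU-DHL-4 (left) or DG-75 (right). Colour gives the log2 level minus the gene's mean over the 12 arrays of that line, with values beyond 3 drawn at the end of the scale. In DG-75 most of a column was red (Ento 1, Ento 3, Ento+AZD 1, Ento+AZD 3, DMSO 3) or blue (DMSO 1, DMSO 2, Ento+AZD 2 and the AZD arrays), while in SU-DHL-4 the colours turned from red to blue between treatments in PARP9, EPSTI1 and DTX3L.

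At baseline, in DMSO, 12 of the 46 members were called between the lines, 7 higher and 5 lower in SU-DHL-4, against 7.20% of all rows. Transcripts of the ADP-ribosylation pair PARP9 and DTX3L, of EPSTI1, of the RNA sensor OAS1, of the antiviral factors SAMD9 and TRIM22, and of the mitochondrial nucleotide kinase CMPK2 were higher in SU-DHL-4. Transcripts of the RNA sensor IFIH1 (MDA5), of IFI44, of PLSCR1, a membrane protein that scrambles phospholipids, of IFITM1, which blocks viral entry, and of UBE2L6, the conjugating enzyme for the ubiquitin-like protein ISG15, were higher in DG-75. Of the 46, 25 had a positive difference and 21 a negative one, and the median was 0.11, against 0.01 over all rows, and 0.16 and 0.23 without DG-75 DMSO 1 and 3.

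EPSTI1, a gene first described in epithelial cells next to stroma, stood at 6.23, 5.93 and 5.69 in the SU-DHL-4 DMSO arrays 1 to 3 and at 2.51, 3.06 and 4.24 in those of DG-75. PARP9, which forms a complex with DTX3L in the response to interferon and DNA damage, stood at 7.75, 7.48 and 7.23 against 4.73, 4.99 and 5.36. Neither gene's groups overlapped, and the differences were 2.68 (SE 0.397, adjusted p = 2.16e-05) and 2.46 (SE 0.285, adjusted p = 6.5e-07). DTX3L, the ubiquitin ligase partner of PARP9, measured 6.44, 6.01 and 6.06 against 4.75, 4.43 and 5.03, a difference of 1.43 (adjusted p = 0.00727).

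SAMD9 gave 8.03, 7.77 and 7.41 in SU-DHL-4 and 6.29, 5.20 and 7.39 in DG-75, where array 3 came up to the lowest SU-DHL-4 array. OAS1 gave 8.54, 8.44 and 7.95 against 6.60, 6.62 and 7.89. In both genes DG-75 array 3 was the highest of its group. The differences of 1.45 (adjusted p = 0.033) and 1.27 (adjusted p = 0.0233) each lost the call without any of 4 single arrays, SU-DHL-4 DMSO 1 or 2 or DG-75 DMSO 1 or 2, where the adjusted p lay between 0.0748 and 0.222. The difference of SAMD9 was 0.90 without DG-75 DMSO 2.

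CMPK2 gave 4.34, 4.97 and 4.04 in SU-DHL-4 and 3.35, 3.28 and 3.33 in DG-75, a difference of 1.13 (adjusted p = 0.0131) that was 0.87 (adjusted p = 0.0968) without SU-DHL-4 DMSO 2. TRIM22, an antiviral ubiquitin ligase, gave 8.73, 8.66 and 8.21 against 7.42, 7.41 and 7.66. Its difference was 1.04 (adjusted p = 0.00556) and fell under 1 without SU-DHL-4 DMSO 1, SU-DHL-4 DMSO 2 or DG-75 DMSO 2, at 0.94, 0.98 and 1.00 after rounding. In both genes all SU-DHL-4 arrays lay above all DG-75 arrays.

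In the other direction, PLSCR1 measured 2.04, 2.84 and 2.17 in SU-DHL-4 DMSO arrays and 5.14, 3.73 and 6.22 in DG-75 DMSO arrays. IFIH1 measured 1.70, 1.80 and 2.94 against 4.62, 4.41 and 4.67. The groups were apart in both, with differences of -2.68 (SE 0.452, adjusted p = 0.000111) and -2.42 (SE 0.398, adjusted p = 7.87e-05).

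UBE2L6 measured 5.44, 5.16 and 5.11 against 7.40, 7.22 and 7.57, a difference of -2.16 (adjusted p = 4.47e-06). IFITM1 measured 7.71, 8.24 and 7.38 against 9.67, 9.66 and 9.70, a difference of -1.90 (adjusted p = 8.94e-06). IFITM1, IFITM2 and IFITM3 are close paralogs, and signal between their probes could be shared. IFI44 measured 2.72, 2.63 and 2.29 against 4.42, 3.75 and 6.34, where DG-75 array 3 again stood highest. Its difference of -2.29 (adjusted p = 0.0077) became -1.54 (adjusted p = 0.0819) without that array.

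The members with the largest row means were IFI16 and IFITM2 in both lines, followed by SP110 in SU-DHL-4 and by IFITM1 in DG-75. IFI16, a nuclear DNA sensor, measured 10.69, 10.59 and 10.65 in SU-DHL-4 DMSO arrays, 10.69, 10.57 and 10.76 in Ento, 9.97, 10.49 and 10.20 in AZD, and 10.58, 10.49 and 10.48 in Ento+AZD. In DG-75 it measured 10.58, 10.68 and 10.48 in DMSO, 10.88, 10.84 and 10.62 in Ento, 10.56, 10.77 and 10.72 in AZD, and 10.99, 10.61 and 10.98 in Ento+AZD. Its whole range was thus 0.80 over the SU-DHL-4 arrays and 0.51 over the DG-75 arrays, where the medians of all rows were 0.82 and 0.78.

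IFITM2, which blocks entry of viruses from endosomes, measured 10.43, 10.49 and 10.23 in SU-DHL-4 DMSO arrays, 10.34, 10.43 and 10.09 in Ento, 9.86, 10.10 and 9.71 in AZD, and 10.33, 9.95 and 9.79 in Ento+AZD. In DG-75 it measured 9.78, 10.00 and 9.56 in DMSO, 10.03, 10.03 and 10.18 in Ento, 9.75, 9.64 and 9.82 in AZD, and 10.50, 10.03 and 10.20 in Ento+AZD. The DMSO arrays of SU-DHL-4 lay above those of DG-75, and the difference of 0.60 (adjusted p = 0.0108) was under the 2-fold minimum.

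SP110, a nuclear body protein and the third by row mean in SU-DHL-4, measured 9.18, 9.29 and 8.61 there in DMSO, 9.31, 9.60 and 8.75 in Ento, 8.35, 9.15 and 8.70 in AZD, and 9.30, 9.46 and 8.86 in Ento+AZD. Its groups overlapped, and it ranged over 1.25 there. IFITM1, the third in DG-75 with a range of 1.66, measured 10.35, 10.12 and 10.28 in Ento, 8.69, 9.16 and 9.26 in AZD, and 10.28, 9.51 and 9.87 in Ento+AZD. All 3 Ento arrays of IFITM1 lay above, and all 3 AZD arrays below, the DMSO arrays given above.

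In SU-DHL-4 the combination lowered PARP9, EPSTI1 and DTX3L, of which EPSTI1 was also called under AZD alone, and no member was called higher under any treatment. AZD alone called 1 of 46 members, lower, against 0.18% of all rows, and the combination called 3, all lower, against 1.19%. At an unadjusted p below 0.05, 18 members were lower and 0 higher under AZD, against 11.5% of all rows in either direction, and 12 were lower and 0 higher under Ento+AZD, against 14%. The median change of the members was -0.33 under AZD and -0.22 under Ento+AZD, where all rows had -0.08 in both. With array medians subtracted, which also moves all rows, these medians were -0.21 and -0.090. These comparisons share the DMSO arrays.

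PARP9 in SU-DHL-4 fell from 7.75, 7.48 and 7.23 in DMSO to 5.47, 5.32 and 5.16 in Ento+AZD. With AZD alone it measured 6.09, 6.34 and 6.27, and with Ento alone 7.47, 6.12 and 7.18. All AZD and all Ento+AZD arrays lay below all DMSO arrays, while the Ento arrays overlapped with DMSO and Ento 2 was the lowest of them. The change was -2.17 under Ento+AZD (SE 0.256, 4.50-fold, adjusted p = 0.00434). Under AZD alone it was -1.25 (SE 0.256, adjusted p = 0.0895) and under Ento alone -0.56 (adjusted p = 0.579).

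EPSTI1 in SU-DHL-4 measured 6.23, 5.93 and 5.69 in DMSO, 5.95, 4.76 and 5.75 in Ento, 3.90, 4.41 and 3.90 in AZD, and 4.20, 3.50 and 3.78 in Ento+AZD. Every array with AZD, alone or combined, lay below every array without it. It was the only member called under AZD alone, with a change of -1.88 (SE 0.264, 3.68-fold, adjusted p = 0.0323), and it changed by -2.12 under Ento+AZD (SE 0.264, 4.36-fold, adjusted p = 0.00458). The call under AZD alone was narrow. Without AZD 1, AZD 3, DMSO 1, DMSO 2 or DMSO 3, each left out singly, the change lay between -1.61 and -2.02 with an adjusted p between 0.103 and 0.196. In each of these 5 refits 0 of all rows were called. Without AZD 2 the members called were EPSTI1, SAMD9 and DTX3L, 3 in all, with 0.465% of all rows called. The call was also lost with array medians subtracted (adjusted p = 0.0584), after quantile normalization (adjusted p = 0.0677) and when all arrays numbered 1 or 3 were left out (adjusted p = 0.258 and 0.55), an omission chosen after seeing the data. In these settings too, 0 of all rows were called.

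DTX3L in SU-DHL-4 measured 6.44, 6.01 and 6.06 in DMSO, 5.95, 4.78 and 6.03 in Ento, 4.52, 5.07 and 4.75 in AZD, and 4.40, 3.76 and 4.48 in Ento+AZD. The AZD and Ento+AZD arrays again lay below all DMSO arrays. The change was -1.96 under Ento+AZD (SE 0.272, 3.88-fold, adjusted p = 0.00567), with an adjusted p of 0.0526 when DMSO 2 was left out, and -1.39 under AZD alone (adjusted p = 0.0724). PARP9, EPSTI1 and DTX3L all gave the same order of groups by mean in SU-DHL-4, with DMSO highest, then Ento, AZD and Ento+AZD. The calls of PARP9, EPSTI1 and DTX3L under Ento+AZD were all lost, each with an adjusted p of 0.0721, when all arrays numbered 3 were left out, where 0 of all rows were called.

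**Figure D2:**
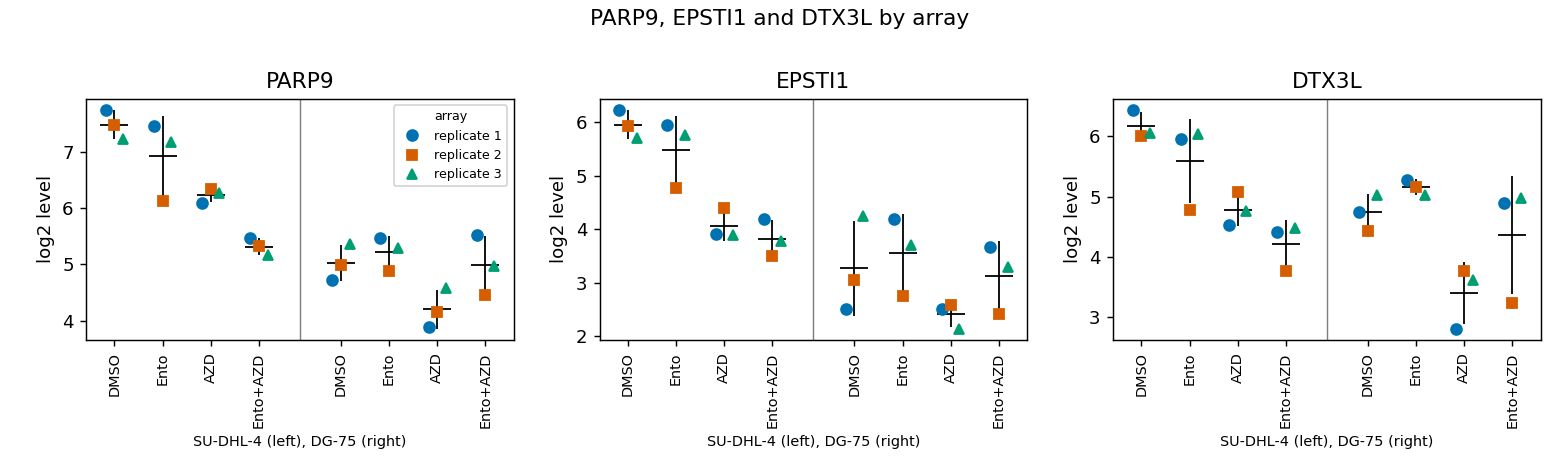
Log2 level of PARP9, EPSTI1 and DTX3L on each array, by treatment, with SU-DHL-4 to the left of the grey line and DG-75 to the right. Symbols mark the replicate number, the horizontal bar is the group mean and the vertical line is 1 SD (n = 3). In SU-DHL-4 the Ento+AZD arrays of each gene lay below all DMSO arrays. In DG-75 the AZD arrays of PARP9 and DTX3L lay below their DMSO arrays, and Ento+AZD array 2 fell with them. For EPSTI1 the AZD and DMSO arrays of DG-75 overlapped.

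The remaining SU-DHL-4 members moved less. Among those lower at an unadjusted p below 0.05 in both comparisons, EIF2AK2 (PKR), the kinase that halts translation on double-stranded RNA, had a change of -0.68 under AZD and -0.78 under Ento+AZD (adjusted p = 0.2 and 0.0588). SAMD9 had -0.82 and -0.76 (adjusted p = 0.153 and 0.0823). ISG20, an RNA exonuclease, had -0.75 under AZD alone (adjusted p = 0.103). By role, 4 of 8 antiviral effectors, 4 of 9 RNA and DNA sensors, 3 of 8 transcription factors and nuclear regulators and 3 of 6 membrane factors were lower under AZD at an unadjusted p below 0.05, along with 2 of 6 survival and other induced genes, 1 of 5 genes of ISG15 conjugation and 1 of 4 IFIT genes. Of all rows 11.5% passed in either direction.

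Ento alone gave 0 calls among the members in SU-DHL-4, against 0.0508% of all rows, with 3 higher and 4 lower at an unadjusted p below 0.05 (limma), where 8.59% of all rows passed. The largest changes were those of OAS1 at 0.62 (adjusted p = 0.33), PARP14, an ADP-ribosyltransferase, at 0.61 (adjusted p = 0.469), and DTX3L at -0.58, which was -0.23 without Ento 2. OAS1 measured 9.26, 8.72 and 8.79 in Ento, all above its DMSO arrays. PARP14 measured 2.57, 2.69 and 3.12 in DMSO and 3.28, 3.46 and 3.47 in Ento, also without overlap. The median change of the members was -0.11 (all rows -0.06), and with each array's median subtracted it became 0.01. Without single arrays it lay between -0.19 (without Ento 1) and -0.035 (without Ento 2).

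Adding AZD to Ento in SU-DHL-4 called EPSTI1 and PARP9 lower, 2 of 46 members against 0.0821% of all rows. Their changes from Ento to Ento+AZD were -1.66 and -1.61, both with an adjusted p of 0.0451, and 11 members (10 lower, 1 higher) passed an unadjusted p below 0.05, against 9.67%. Both calls were lost without the replicate number in the fit (adjusted p = 0.104 and 0.101) and when Ento+AZD 1, 2 or 3, Ento 1 or Ento 3 was left out singly, with an adjusted p between 0.128 and 0.304. Adding Ento to AZD called 0 members, against 0.0274%. At an unadjusted p below 0.05, 8 members were higher and 1, PARP9 at -0.92 (adjusted p = 0.503), was lower, against 7.03% of all rows. Highest among them was TRIM22 at 0.67 (adjusted p = 0.526).

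**Figure D3:**
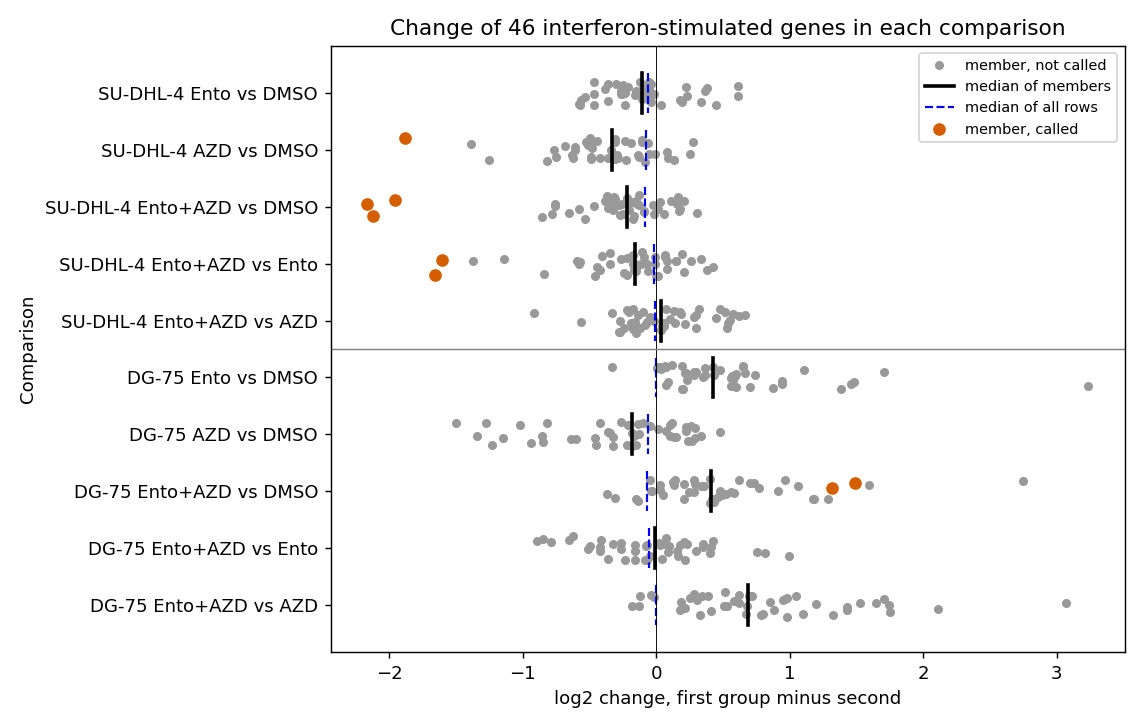
Each point is the log2 change of 1 of the 46 members in the comparison named on the left, and called members are orange. The solid bar is the median of the members and the dashed bar the median of all 25575 rows. The members of DG-75 were spread to the right in the comparisons of Ento or Ento+AZD with DMSO (medians 0.43 and 0.41) and of Ento+AZD with AZD (0.69), while the called members of SU-DHL-4 lay at the left end.

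In DG-75 most members had positive changes where Ento was given, and 2 passed the test, both under Ento+AZD. Under Ento alone, 45 of 46 members had a positive change, the median was 0.43 against -0.0043 for all rows, and 0 members were called (0.00391% of all rows). The median lay between 0.27 (without DMSO 1) and 0.60 (without DMSO 3) when single arrays were left out. At an unadjusted p below 0.05, 13 members were higher and 0 lower by limma, where 2.81% of all rows passed. Under Ento+AZD, 2 members were called, both higher (0.833% of all rows), 16 were higher and 0 lower at an unadjusted p below 0.05 (16% of all rows), and the median was 0.41 against -0.07. This median lay between 0.20 (without Ento+AZD 1) and 0.60 (without DMSO 3) when single arrays were left out. Both comparisons use the same DMSO arrays. Over the same arrays the mean log2 level of the B-cell markers was 8.36 to 8.74 in DMSO, 8.50 to 8.84 in Ento, 8.93 to 9.07 in AZD and 8.98 to 9.43 in Ento+AZD, and its part in the changes of the members was not tested.

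IFI44L, a gene of unsettled function that is among the most strongly interferon-induced, carried the widest range. In DG-75 it measured 3.04, 2.36 and 6.83 in DMSO, 8.73, 6.04 and 7.16 in Ento, 2.98, 3.75 and 4.52 in AZD, and 7.94, 4.01 and 8.50 in Ento+AZD. DMSO array 3 stood with the Ento arrays, and Ento+AZD array 2 with the AZD arrays, so the groups overlapped. The change was 3.24 under Ento (SE 0.909, 9.42-fold, adjusted p = 1) and 2.74 under Ento+AZD (SE 0.909, 6.69-fold, adjusted p = 0.156). Leaving out single arrays moved the change under Ento between 2.41 (without Ento 1) and 4.23 (without DMSO 3). On all SU-DHL-4 arrays IFI44L stayed between 1.56 and 2.55.

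IFI44, the neighbour of IFI44L on chromosome 1, followed it. It measured 4.42, 3.75 and 6.34 in DMSO, 7.52, 5.21 and 6.22 in Ento, 2.92, 3.85 and 4.31 in AZD, and 6.40, 4.24 and 6.77 in Ento+AZD. DMSO 3 and Ento+AZD 2 again fell outside the other arrays of their groups. The change under Ento was 1.48 (SE 0.586, adjusted p = 1), and 0.78 without Ento 1.

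MX1, a GTPase that traps viral nucleocapsids, measured 4.36, 3.84 and 6.07 in DMSO, 7.26, 5.16 and 6.98 in Ento, 4.02, 3.80 and 5.20 in AZD, and 7.09, 4.68 and 6.37 in Ento+AZD. Its levels split in the same way, with DMSO 3 above Ento 2. The change was 1.71 under Ento (SE 0.416, adjusted p = 1) and 1.29 under Ento+AZD (adjusted p = 0.146).

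IFIT3, which binds foreign RNA together with IFIT1, measured 2.80, 2.65 and 3.75 in DMSO and 6.64, 2.77 and 4.57 in Ento+AZD. Its change of 1.59 (SE 0.564, adjusted p = 0.187) became 0.66 without Ento+AZD 1 and 1.02 without DMSO 1. In Ento it measured 4.09, 3.09 and 3.81 and in AZD 3.12, 2.80 and 2.82. The single array Ento+AZD 1 was thus the highest of all, as it was for IFIT2, which measured 7.39 there and at most 5.87 on any other DG-75 array.

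The 2 members called in DG-75 were PARP14 and OAS1. PARP14 measured 2.87, 2.71 and 3.22 in DMSO, 4.03, 2.82 and 3.64 in Ento, 3.34, 2.38 and 3.74 in AZD, and 5.04, 3.43 and 4.28 in Ento+AZD. OAS1, which makes the messenger that activates RNase L, measured 6.60, 6.62 and 7.89 in DMSO, 8.92, 7.72 and 8.86 in Ento, 6.86, 7.30 and 7.82 in AZD, and 9.21, 7.59 and 8.78 in Ento+AZD. For PARP14 the Ento+AZD arrays lay above all DMSO arrays, and for OAS1 Ento+AZD 2 lay below DMSO 3.

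Under Ento+AZD, PARP14 changed by 1.31 (SE 0.251, 2.49-fold, adjusted p = 0.0263) and OAS1 by 1.49 (SE 0.343, 2.80-fold, adjusted p = 0.0493). Neither call held without the replicate number in the fit (adjusted p = 0.117 and 0.104). OAS1 lost its call without any single one of the 6 arrays compared, with an adjusted p between 0.0701 and 0.295, and PARP14 without Ento+AZD 1, Ento+AZD 2, DMSO 1 or DMSO 3, with an adjusted p between 0.0635 and 0.183.

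**Figure D4:**
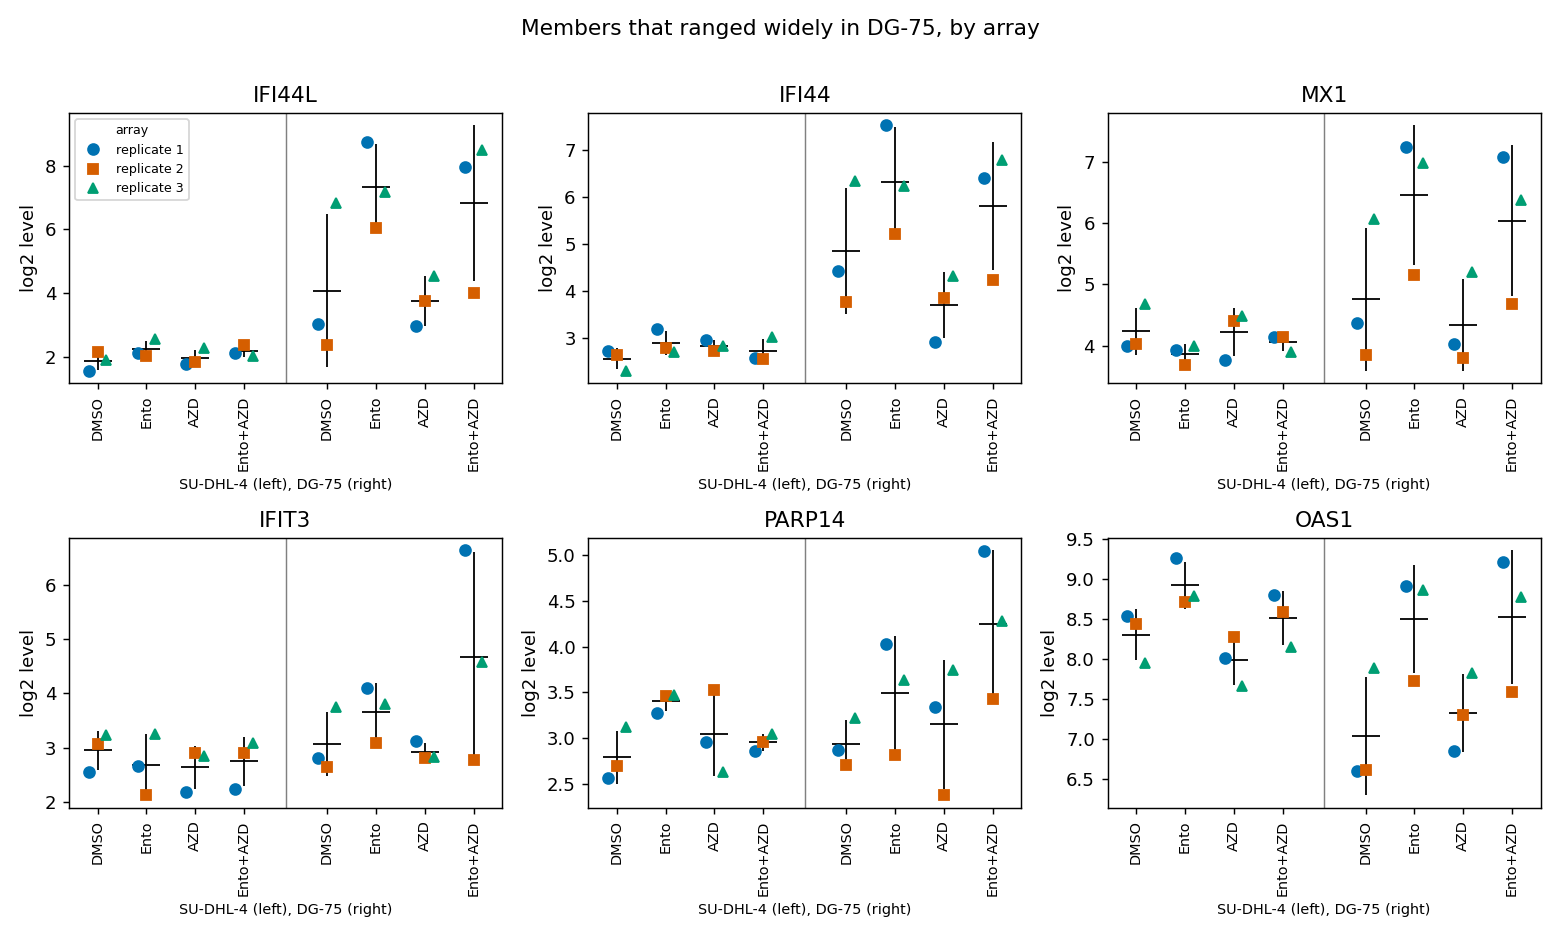
Log2 level of 6 members on each array, by treatment, with SU-DHL-4 to the left of the grey line and DG-75 to the right. Symbols mark the replicate number, the horizontal bar is the group mean and the vertical line is 1 SD (n = 3). In DG-75, Ento+AZD array 2 lay near the AZD arrays for each gene, and for IFI44L DMSO array 3 lay among the Ento arrays.

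By role under Ento+AZD in DG-75, 5 of 8 transcription factors and nuclear regulators were higher at an unadjusted p below 0.05, among them IRF9, the DNA-binding part of ISGF3, at 1.17 (adjusted p = 0.138), STAT2 at 0.48 (adjusted p = 0.167) and SP110 at 0.73 (adjusted p = 0.0841). So were 4 of 8 antiviral effectors, among them RSAD2 (viperin), which makes a chain-terminating nucleotide, at 0.91 (adjusted p = 0.0884). With 16% of all rows passing, the count was 3 of 6 for survival and other induced genes, 2 of 4 for IFIT genes, 1 of 9 for sensors, 1 of 6 for membrane factors and 0 of 5 for ISG15 conjugation.

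Under AZD alone in DG-75, 30 of 46 members had a negative change and none was called. The count was 0 of 46, against 0.18% of all rows, with 7 lower and 0 higher at an unadjusted p below 0.05 by limma, against 13.8%. The median change was -0.18 (all rows -0.06). It was -0.01 without DMSO array 3, -0.03 without AZD array 1, -0.36 without DMSO array 1 and -0.42 without AZD array 2, and 0.02 when all arrays numbered 3 were left out, an alternative chosen after seeing the data.

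IFIH1 measured 4.62, 4.41 and 4.67 in DMSO and 2.69, 3.02 and 3.50 in AZD, with no overlap. Its change of -1.50 (SE 0.343, adjusted p = 0.0865) was the largest decrease under AZD in DG-75 among the members. In Ento IFIH1 measured 5.82, 5.32 and 5.18, and in Ento+AZD 5.27, 3.47 and 5.04.

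UBE2L6 measured 7.40, 7.22 and 7.57 in DMSO and 6.07, 6.24 and 6.80 in AZD, again without overlap, a change of -1.02 (adjusted p = 0.083). DTX3L measured 4.75, 4.43 and 5.03 in DMSO, 5.28, 5.17 and 5.02 in Ento, 2.80, 3.76 and 3.61 in AZD, and 4.89, 3.23 and 4.97 in Ento+AZD. Its AZD arrays lay below all DMSO arrays, and the change was -1.35 (SE 0.379, adjusted p = 0.135). PARP9 measured 4.73, 4.99 and 5.36 in DMSO and 3.88, 4.16 and 4.57 in AZD, also without overlap. In Ento it measured 5.47, 4.89 and 5.29, and in Ento+AZD 5.52, 4.46 and 4.97. EPSTI1 measured 2.51, 3.06 and 4.24 in DMSO and 2.51, 2.59 and 2.14 in AZD, with overlap. In Ento it measured 4.20, 2.75 and 3.70, and in Ento+AZD 3.67, 2.42 and 3.30. EIF2AK2 measured 7.76, 6.76 and 8.18 in DMSO and 5.32, 6.88 and 6.66 in AZD, with overlap. Its change of -1.28 (adjusted p = 0.239) became -0.60 without AZD 1 and -1.96 without AZD 2.

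Between the treated groups of DG-75, Ento+AZD against AZD gave the most one-sided picture. No member was called, and 0% of all rows were called. Yet 25 of 46 members (54.3%) passed an unadjusted p below 0.05 by limma, all higher in Ento+AZD, against 4.03% of all rows, and the median difference was 0.69 against -6.45e-05, and 0.44 without Ento+AZD 1. It was 0.37 and 1.06 when all arrays numbered 1 or 2 were left out, an omission chosen after seeing the data. Members moved together over the arrays of this line, so the 25 are not separate observations. All 4 IFIT genes were among the 25, along with IFI44L at 3.07 (SE 0.909, adjusted p = 1) and IFI44 at 2.11 (SE 0.586, adjusted p = 1). Ento+AZD against Ento called 0 members (0.657% of all rows), with 4 higher and 3 lower at an unadjusted p below 0.05 by limma (14.8%). The median difference was -0.01, became 0.06 with array medians subtracted and 0.03 after quantile normalization, and lay between -0.24 (without Ento+AZD 1) and 0.13 (without Ento 1) when single arrays were left out.

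The levels of the members in DG-75 also varied with the replicate number. Each number held 1 array of each treatment, and number 2 had the lowest mean of the 3 numbers for 42 of the 46 members, number 3 for 4 and number 1 for 0. Over all rows number 2 was lowest for 45.2%. In the limma F test between the numbers, 0 members and 0% of all rows were called in DG-75, and 20 members (43.5%) passed an unadjusted p below 0.05, against 6.49%. The largest spreads between number means were 2.71 for IFI44L (adjusted p = 0.637) and 1.79 for MX1 (adjusted p = 0.339). In SU-DHL-4, 0 members were called, against 0.282% of all rows, and 8 passed an unadjusted p below 0.05 by limma, against 10.6%. There the lowest number was 1 for 15 members, 2 for 13 and 3 for 18. Over all rows of SU-DHL-4 the shares were 35.9%, 36.5% and 27.5%.

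Counting how many members lay above their own median over the 12 arrays of the line gave the same division. In DG-75 the counts in arrays 1 to 3 were 8, 6 and 38 of 46 in DMSO, 43, 19 and 38 in Ento, 8, 7 and 15 in AZD, and 44, 10 and 40 in Ento+AZD. Array DMSO 3 thus stood with the high arrays and Ento+AZD 2 with the low ones, and Ento 2 lay below the other Ento arrays. In SU-DHL-4 they were 31, 39 and 31 in DMSO, 35, 16 and 27 in Ento, 11, 18 and 14 in AZD, and 21, 18 and 15 in Ento+AZD, so every array with AZD lay below every DMSO array. What the replicate numbers stand for at the bench is not given in the sources used here, and its part in these values was not tested.

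**Figure D5:**
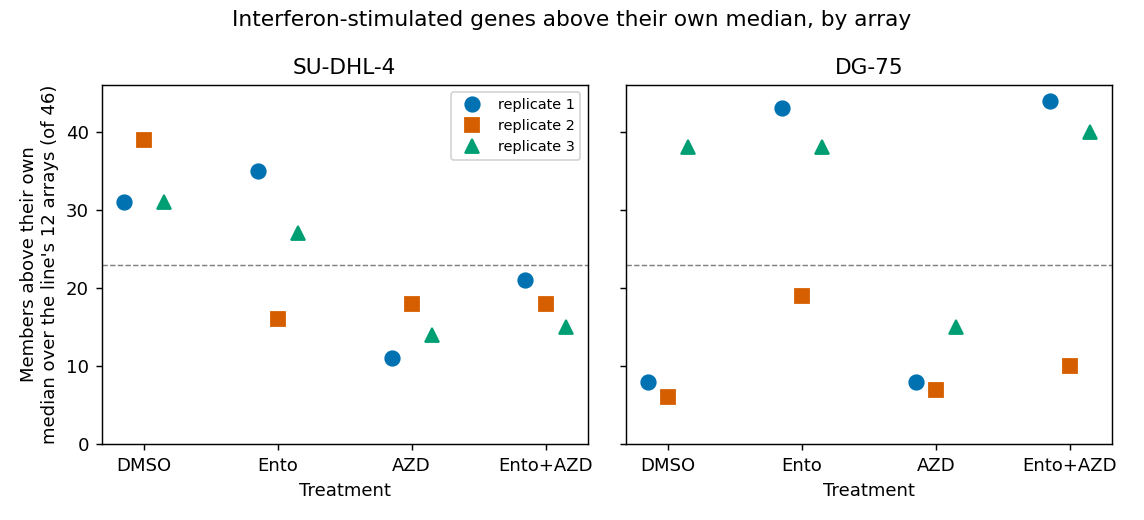
Number of the 46 members above their own median over the 12 arrays of the line (vertical axis), by treatment, for each array of SU-DHL-4 (left) and DG-75 (right). Symbols mark the replicate number and the dashed line is at 23 members. In DG-75 the arrays fell between 6 and 44, with DMSO array 3 (38), Ento array 2 (19) and Ento+AZD array 2 (10) on the other side of the dashed line from the rest of their groups.

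Across the 12 DG-75 arrays the members most like IFI44L were IFI44 (Pearson r = 0.957), MX1 (0.946), OAS1 (0.942) and ISG20 (0.922). The lowest values belonged to OASL, a relative of OAS1 without its enzyme activity, at -0.50, CMPK2 at -0.20 and OAS3 at -0.09. OASL ranged over only 0.54 log2 units in DG-75, OAS3 over 0.78, the RNA helicase DDX60 over 0.62, the ISG15 ligase HERC5 over 0.60 and its relative HERC6 over 0.32. These 5 members thus varied by under 1 log2 unit on the arrays where IFI44L varied by 6.37. So did ISG20 (0.96), IFITM2 (0.94), CMPK2 (0.92), STAT2 (0.83), IFITM3 (0.78), IFI35 (0.65) and IFI16 (0.51). A narrow range therefore did not set the 5 apart, and ISG20 was among the members most like IFI44L. HERC5 and DDX60 had means of 1.78 and 2.11 in DG-75, near the low end of the scale.

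The responses of the lines were compared directly as a difference of differences. For Ento+AZD against DMSO, 45 of 46 members had the lower change in SU-DHL-4, with a median difference of -0.81 (all rows -0.01), which was -0.50 without DG-75 DMSO 1. Of these, 22 passed an unadjusted p below 0.05 by limma, against 6.51% of all rows, and 0 were called, against 0.0352%. Nearest to a call was PARP9 at -2.13 (SE 0.386, adjusted p = 0.0623), called after quantile normalization and with a trended prior. EPSTI1 had -1.98 (adjusted p = 0.304) and IFI44L -2.44 (adjusted p = 0.692).

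For Ento against DMSO the median difference between the lines was -0.65 (-0.42 without DG-75 DMSO 1), 12 members were lower and 0 higher at an unadjusted p below 0.05 by limma (4.43% of all rows), and 0 were called (0.00782%). IFI27, a mitochondrial and nuclear membrane protein, differed by -1.77 (SE 0.383, adjusted p = 0.536) and was called when DG-75 Ento 2 was left out. In DG-75 it measured 4.87, 4.74 and 5.80 in DMSO and 7.24, 5.12 and 7.20 in Ento. In SU-DHL-4 it stayed between 4.24 and 4.91. For AZD against DMSO the median difference was -0.18 and lay between -0.33 (without DG-75 DMSO 3) and -0.059 (without DG-75 AZD 2) when single arrays were left out. At this contrast 5 members passed an unadjusted p below 0.05 by limma (6.16% of all rows) and 0 were called (0% of all rows).

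The rest of the interferon pathway was read from a list of 39 further genes holding ligands, receptors, kinases, transcription factors, sensors and inhibitors. Among the comparisons between treatments, 1 of the 39 was called in 1 comparison, in which 1.19% of all rows were called. This was PTPN6 (SHP-1), a phosphatase that restrains cytokine and B-cell receptor signals, at -1.25 in SU-DHL-4 under Ento+AZD (SE 0.201, adjusted p = 0.00911). Its levels were 5.97, 6.53 and 5.44 in DMSO and 4.98, 4.78 and 4.44 in Ento+AZD.

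Under Ento in DG-75, 1 of the 39 was higher and 0 lower at an unadjusted p below 0.05 by limma, where 2.81% of all rows passed, and under Ento+AZD 2 were higher and 4 lower, where 16% passed. Both counts were near the share of all rows.

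Between the lines in DMSO, 4 of the 39 were called, near the 7.20% of all rows. The endosomal RNA and DNA receptors TLR7 (2.22, adjusted p = 0.000663) and TLR9 (1.28, adjusted p = 0.000205) were higher in SU-DHL-4. The cytosolic DNA sensor CGAS (-1.86, adjusted p = 0.00019) and JAK1 (-1.08, adjusted p = 2.39e-06) were lower there. TLR7 was also the 1 pathway gene called between replicate numbers, in SU-DHL-4 (spread 1.49, adjusted p = 0.0459).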

How the data were processed

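The files held 1 table of 25575 gene rows by 24 arrays. Per the labels and methods, RNA of cells exposed for 72 h was hybridised to Human Clariom D arrays, and the authors normalized the arrays by RMA and annotated probe sets to genes, which gave the deposited log2 values. Versions and the genome build are not given in the sources used here. Members were matched by symbol. The deposited values were not rescaled. Each line was fitted apart with limma 3.58.1 (R 4.3.3) on all 12 of its arrays, with treatment and replicate number as terms, the number standing in for a batch term that the study's model names and the labels do not define. Baseline differences came from 1 fit of 8 groups, and differences between responses from 1 fit of 24 arrays with the replicate number within each line. p-values were adjusted by Benjamini-Hochberg over all rows. Calls needed an adjusted p below 0.05 and a log2 change over 1. The fits were tried on simulated data with independent noise in each row, unlike the members, which moved together in DG-75. In that simulation 86.5% to 93.5% of 200 rows changed by 1.5 were called, with 1 to 5 false calls.

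Values of every array were given for members called in a comparison, for the 3 with the largest change in each comparison with DMSO and for the 3 with the largest mean in each line, over the groups compared, and pathway genes were named where called. IFI27, IFIT2 and TCF4 were added after their values were seen, as were other members named with a change that passed only unadjusted. The members and lists were chosen with earlier results of these data known. Alternatives were the replicate term, 1 fit of all arrays, 2 rescalings, a filter on low rows, 1 row per symbol, a trended prior, no fold minimum and the omission of arrays. No per-sample column was left unused. The number of arrays limits the precision, and p-values measure the spread between cultures of 1 line.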

Additional observations from a re-analysis of the deposited data

How the results depend on the processing

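The 3 arrays per group limit every test here, and low log2 values could not be told from background. Over the replicate term, both rescalings and the omission of arrays, 33 changes of named genes were recomputed in 360 refits. Of these refits, 0 reversed the change, 62 lost the call and 2 gained it. Only a change that was called to begin with could lose a call, so the 62 are not a share of all 360. Reversals were unlikely from the start, because the genes were those called or most changed. Pairing by the numbers on the arrays was not settled. Same-numbered deviations correlated above 0.1 in 12 of 18 pairs in SU-DHL-4 (median 0.15) and 7 of 18 in DG-75 (median 0.04). Without the replicate block the calls fell to 0 for SU-DHL-4 Ento+AZD against Ento and to 0 for DG-75 Ento+AZD against DMSO, and with the block between the lines the count was 12. The share of all rows called in these refits is not given here. One fit of all arrays called 2 members for SU-DHL-4 AZD (0.266% of all rows), 1 for DG-75 AZD (IFIH1, with 0.477%) and 4 for DG-75 Ento+AZD against DMSO (0.95%). Subtracting array medians called 0 for SU-DHL-4 AZD and moved the medians of SU-DHL-4 Ento and Ento+AZD against DMSO to 0.011 and -0.090. Quantile normalization called 0 for SU-DHL-4 AZD, 0 for Ento+AZD against Ento there, and 1 (PARP9, with 0.043% of all rows) for the line difference under Ento+AZD, and the median of SU-DHL-4 Ento+AZD against DMSO became -0.13. Without rows under the median mean, which drops members from the test, the counts were 2 for SU-DHL-4 AZD (0.422% of the rows kept), 1 for DG-75 AZD (UBE2L6, with 0.805%), 1 for DG-75 Ento+AZD against DMSO (1.63%) and 6 between the lines (10.2%). A trended robust prior called 3 for SU-DHL-4 AZD (0.411% of all rows), 2 for DG-75 AZD (0.606%) and 1 (PARP9) for the line difference under Ento+AZD (0.125%). With no fold minimum 18 members were called between the lines, as were 17.6% of all rows. Omitting all arrays of 1 number, an alternative chosen after seeing the data, called 0, 2 and 0 members for SU-DHL-4 AZD without numbers 1, 2 and 3, 0 for Ento+AZD against Ento in SU-DHL-4 without number 1 or 3, 0 for SU-DHL-4 Ento+AZD against DMSO without number 3, and 0 for DG-75 Ento+AZD against DMSO without any number. As given above for SU-DHL-4, 0 of all rows were called for AZD without number 1 or 3. The same held for Ento+AZD against DMSO without number 3. This omission moved the SU-DHL-4 Ento median to -0.19 without number 1 and -0.0098 without number 2. Leaving out single arrays gave 0 to 3 calls for SU-DHL-4 AZD, 2 to 3 for Ento+AZD against DMSO and 0 to 3 for Ento+AZD against Ento there, 0 to 2 for DG-75 Ento+AZD against DMSO, 9 to 14 between the lines and 0 to 1 for the line difference under Ento, and the SU-DHL-4 Ento median lay between -0.19 and -0.035. The shares of all rows for the single-array refits of SU-DHL-4 AZD stand above with EPSTI1. Other counts printed in this section without such a share describe the members alone and cannot be set against the whole table. The causes of the shifts in this section were not tested.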
